A study of Homo sapiens with 14 samples.

Results

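The glutamine tRNAs carry glutamine to the ribosome and read the codons CAG and CAA. This account covers the tRNA loci that the study's site table named tRNA-Gln-, which were 7 of the 248 tRNA loci obtained after clusters lying close together on a strand were joined. Of these, 3 were tRNA-Gln-CTG loci, which read CAG, and 4 were tRNA-Gln-TTG loci, which read CAA. A cDNA count was assigned to a locus when it fell on the strand of the listed cluster, from 100 nt 5′ to 25 nt 3′ of it. TRMT2A, the enzyme studied, places the methyl group of m5U at position 54, the first base of the T-loop of tRNAs, and the experiments asked where the enzyme binds and where it acts. In human tRNAs, A58 in the same loop commonly carries m1A, a modification that stalls reverse transcriptase, so cDNAs often end there.

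The libraries fell into 5 groups. FICC-Seq was performed on endogenous TRMT2A from HEK293 cells (3 libraries), a line derived from human embryonic kidney, and from near-haploid HAP1 cells (3 libraries), after exposure to 100 µM 5-fluorouracil for 24 h, which traps the enzyme on its substrate during catalysis (the condition field of these samples nevertheless read untreated). iCLIP was performed on endogenous TRMT2A from the same lines (3 libraries each), with UV crosslinking and without the drug. miCLIP was performed on 2 HEK293 libraries, 24 h after transfection of a FLAG-tagged TRMT2A construct in which a catalytic glutamate was replaced by alanine, so its values come from an ectopic mutant enzyme in HEK293 cells alone. The headers of the files give the FICC-Seq and iCLIP libraries of each cell line a run name of their own and miCLIP another, so cell line and run, and miCLIP and run, cannot be told apart. The labels give replicates 1 and 3 of FICC-Seq from HEK293 cells the same in-line barcode. Their counts differed beyond counting noise (chi-square per degree of freedom 2.3) and they were kept as separate libraries, but whether they are independent is not known. The libraries held from 7002 to 104605 cDNA counts, and from 3809 to 60535 on tRNA loci, with FICC-Seq (13684 to 31448 tRNA counts) deeper than iCLIP (3809 to 7841) in every library. Abundance is given as a share of the tRNA counts of a library, and tRNA took from 45.0% to 85.6% of the counts. No marker of either cell line could be read from such tRNA counts.

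The 7 loci held 3 different gene sequences, each of 72 bases. They are shown whole because they differ at so few bases, with the anticodon and the T-loop in capitals, from the hg19 assembly.
tRNA-Gln-CTG-1-2: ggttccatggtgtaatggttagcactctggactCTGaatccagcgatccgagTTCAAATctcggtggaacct
tRNA-Gln-TTG-1-1: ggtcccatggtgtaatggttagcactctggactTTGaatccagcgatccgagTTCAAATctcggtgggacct
tRNA-Gln-TTG-3-1: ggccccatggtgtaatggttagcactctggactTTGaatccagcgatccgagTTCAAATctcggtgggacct
With positions in the standard tRNA numbering, tRNA-Gln-TTG-1-1 differed from tRNA-Gln-CTG-1-2 by T4C, C34T and A69G, which change the anticodon and 1 pair of the acceptor stem. tRNA-Gln-TTG-3-1 differed by these 3 substitutions and T3C. tRNA-Gln-CTG-1-4 and tRNA-Gln-CTG-1-5 were identical to tRNA-Gln-CTG-1-2, and tRNA-Gln-TTG-3-2 and tRNA-Gln-TTG-3-3 were identical to tRNA-Gln-TTG-3-1. All 7 thus shared the whole D arm, T arm and variable region, and the T-loop TTCAAAT.

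The copies can be separated only by the sequence around them. The authors kept reads that mapped to a single place, so a read inside a gene with identical copies could be placed only if it ran into the leader or the trailer. The last 25 bases of each gene, from position 49 to 73, are therefore shown with the next 5 bases of the genome, the T-loop in capitals.
tRNA-Gln-CTG-1-2: ccgagTTCAAATctcggtggaacctgtcgt
tRNA-Gln-CTG-1-4: ccgagTTCAAATctcggtggaacctgcatt
tRNA-Gln-CTG-1-5: ccgagTTCAAATctcggtggaaccttgaag
tRNA-Gln-TTG-1-1: ccgagTTCAAATctcggtgggacctcacga
tRNA-Gln-TTG-3-1: ccgagTTCAAATctcggtgggacctgtcct
tRNA-Gln-TTG-3-2: ccgagTTCAAATctcggtgggacctaccaa
tRNA-Gln-TTG-3-3: ccgagTTCAAATctcggtgggaccttcttg
A mature tRNA carries CCA after position 73 in place of these bases. The 3 genomic bases there matched CCA at 2 places at tRNA-Gln-CTG-1-4, at 1 place at tRNA-Gln-CTG-1-5, tRNA-Gln-TTG-1-1, tRNA-Gln-TTG-3-2 and tRNA-Gln-TTG-3-3, and at 0 places at tRNA-Gln-CTG-1-2 and tRNA-Gln-TTG-3-1. The part of this mapping in the order of the copies was not tested, and the counts of identical copies are uncertain for that reason.

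The CTG loci lay on 3 chromosomes. tRNA-Gln-CTG-1-2 occupied chr6:27487308-27487379 on the plus strand and tRNA-Gln-CTG-1-5 occupied chr17:8023070-8023141 on the plus strand, both outside annotated genes of GENCODE. tRNA-Gln-CTG-1-4 occupied chr15:66161400-66161471 on the minus strand, opposite an intron of RAB11A, a small GTPase of recycling endosomes. Of the TTG loci, tRNA-Gln-TTG-1-1 occupied chr17:47269890-47269961 on the plus strand and tRNA-Gln-TTG-3-3 occupied chr6:27763640-27763711 on the minus strand, both outside annotated genes. tRNA-Gln-TTG-3-1 at chr6:26311424-26311495 and tRNA-Gln-TTG-3-2 at chr6:26311975-26312046 were neighbours on the minus strand, opposite introns of 2 uncharacterised transcripts. None of the 7 windows overlapped that of another locus.

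The listed cluster of every member lay within positions 56 to 60, around A58. The study listed a cluster only where it reached a minimum count in most of its experiments, so the members are the glutamine genes with counts at A58, and the FICC-Seq libraries had hardly any there. The direction of the comparison of FICC-Seq with iCLIP is therefore not independent of how the members were listed. The same holds for the share of counts at A58 in iCLIP and miCLIP. All glutamine genes found by sequence, listed or not, are given further on.

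Glutamine tRNAs were almost absent from FICC-Seq and present in both other methods. Over the 7 loci, the FICC-Seq libraries of HEK293 cells held 1, 14 and 1 cDNA counts and those of HAP1 cells 0, 33 and 6. The iCLIP libraries held 75, 52 and 43 counts in HEK293 cells and 44, 49 and 32 in HAP1 cells. The miCLIP libraries held 396 and 1460 counts. The 33 counts of the highest FICC-Seq library exceeded the 32 of the lowest iCLIP library, but each FICC-Seq library was deeper than each iCLIP library, and as shares of the tRNA counts the methods did not overlap.

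As a share of tRNA counts, glutamine loci took 0.0372% ± 0.0564 (SD, n = 3) in FICC-Seq from HEK293 cells and 0.0456% ± 0.0632 (SD, n = 3) in FICC-Seq from HAP1 cells. In iCLIP the share was 1.05% ± 0.0871 (SD, n = 3) in HEK293 cells and 0.780% ± 0.0835 (SD, n = 3) in HAP1 cells, the lowest HEK293 library (0.957%) lying above the highest HAP1 library (0.847%). In miCLIP it was 2.12% ± 0.413 (SD, n = 2), and both libraries lay above all iCLIP libraries. The pooled rate in iCLIP was 22.9 times that in FICC-Seq, with an exact 95% interval for counting error from 17.1 to 31.2. No test was made on this sum over the members. Intervals and limits on counts cover counting error only.

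Of the 55 FICC-Seq counts on glutamine loci, 47 (85.5%) came from the 2 libraries numbered replicate 2, one from each cell line. These held 24.1% of the tRNA counts of FICC-Seq in HEK293 cells and 34.2% in HAP1 cells. The other 4 libraries held 8 glutamine counts in all, and the iCLIP rate was 110 times theirs (exact 95% interval 55.2 to 258). The difference was larger without the replicate 2 libraries, which also share an in-line barcode. They were left out after it was seen that they held most of these counts. A larger ratio had to follow and is not read as support. Of the 7 iCLIP counts in the leader of the genes, all also came from libraries numbered replicate 2.

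At the level of single loci, all 7 glutamine loci were lower in FICC-Seq than in iCLIP when both cell lines were fitted together with limma-voom across all tRNA loci, where 35% of the 246 loci tested were called lower and 61% were called in either direction. A locus was called at a Benjamini-Hochberg adjusted p under 0.05. Only tRNA-Gln-TTG-1-1 (11 counts) and tRNA-Gln-TTG-3-1 (30 counts) reached the minimum of 10 counts through FICC-Seq. The other members passed it through iCLIP, so the filter set their direction. Neither their calls nor a lack of overlap at them is read as a result. The log2 fold changes of the 7 ranged from -6.07 to -3.12 with a median of -4.63, beside a median of -0.04 over all loci tested. All 7 were called with the replicate number within a method as a random block over the cell lines (147 of 246 loci called). They were also called with replicate 2 of FICC-Seq left out of both cell lines. That omission removed most of their FICC-Seq counts, so nothing is read from it. The fit adds 0.5 counts to each value, which leans toward lower in the deeper FICC-Seq libraries where both methods are near 0. Every iCLIP library exceeded every FICC-Seq library at 3 of the 7 loci, tRNA-Gln-CTG-1-4, tRNA-Gln-CTG-1-5 and tRNA-Gln-TTG-1-1, against 16.7% of the loci tested.

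Among the loci with the anticodon CTG, tRNA-Gln-CTG-1-4 was the most counted. It held 27, 9 and 11 iCLIP counts in HEK293 cells and 20, 13 and 7 in HAP1 cells, against 0, 1 and 1 FICC-Seq counts in HEK293 cells and 0, 1 and 0 in HAP1 cells. Every iCLIP library was higher than every FICC-Seq library, and the fit gave a log2 fold change of -6.07 ± 0.556 (SE) with an adjusted p of 1.45e-08 from limma. tRNA-Gln-CTG-1-5 held 12, 9 and 7 iCLIP counts in HEK293 cells and 9, 6 and 6 in HAP1 cells, and 0 counts in all FICC-Seq libraries but replicate 3 of HAP1, which held 2. Again the groups did not overlap (log2 fold change -5.76 ± 0.529, limma adjusted p = 1.45e-08). tRNA-Gln-CTG-1-2 held 13, 11 and 9 iCLIP counts in HEK293 cells but 0, 6 and 5 in HAP1 cells, and 1, 1 and 0 then 0, 0 and 0 in FICC-Seq. Here replicate 1 of HAP1 iCLIP overlapped with FICC-Seq at 0, and the log2 fold change was -5.04 ± 0.675 (limma adjusted p = 3.51e-06). The CTG loci all passed the minimum count through iCLIP, so neither their calls nor their lack of overlap is read as a result.

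Among the loci with the anticodon TTG, FICC-Seq counts were more frequent but uneven. tRNA-Gln-TTG-1-1 held 10, 12 and 10 iCLIP counts in HEK293 cells and 5, 7 and 5 in HAP1 cells, against 0, 3 and 0 then 0, 6 and 2 in FICC-Seq (log2 fold change -4.63 ± 0.637, limma adjusted p = 4.39e-06). tRNA-Gln-TTG-3-1 held 4, 9 and 4 iCLIP counts in HEK293 cells and 4, 11 and 5 in HAP1 cells, against 0, 7 and 0 then 0, 21 and 2 in FICC-Seq. Per tRNA count, the FICC-Seq libraries numbered replicate 2 of both cell lines overlapped with iCLIP at this locus, and the log2 fold change was -3.73 ± 0.763 (limma adjusted p = 0.000248). Pooled, the iCLIP rate at tRNA-Gln-TTG-3-1 was 5.27 times that in FICC-Seq (exact 95% interval 3.17 to 8.84). It was 55.3 times (14.3 to 474) with the replicate 2 libraries of FICC-Seq left out, a rise that follows from removing most of the FICC-Seq counts there.

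The remaining copies were thinly counted. tRNA-Gln-TTG-3-2 held 4, 0 and 1 iCLIP counts in HEK293 cells, 6, 3 and 4 in HAP1 cells, and in FICC-Seq 3 counts in HAP1 replicate 2 alone (log2 fold change -4.10 ± 0.665, limma adjusted p = 2.68e-05). tRNA-Gln-TTG-3-3 held 5, 2 and 1 iCLIP counts in HEK293 cells, 0, 3 and 0 in HAP1 cells, and 2 FICC-Seq counts in replicate 2 of each cell line (log2 fold change -3.12 ± 0.733, limma adjusted p = 0.000864). At both of these loci some libraries of the 2 methods stood together at 0. In an exact permutation test within cell lines (two-sided, libraries taken as independent, smallest possible p = 0.005), tRNA-Gln-TTG-3-3 was the only member that was not called (adjusted p = 0.0837). Over all loci, 135 of 246 were called in this test. All members but tRNA-Gln-TTG-1-1 and tRNA-Gln-TTG-3-1 entered it through iCLIP, so calls at those members are not read as a result.

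Within each cell line, all members that could be tested were called lower. Most passed the minimum of 10 counts only with their iCLIP counts. FICC-Seq alone reached it at no member in HEK293 cells (at most 7 counts) and only at tRNA-Gln-TTG-3-1 in HAP1 cells (23 counts). Elsewhere the filter set the direction in advance, and nothing is read from those calls. In HEK293 cells 6 glutamine loci had enough counts, and their log2 values ran from -6.04 to -3.58, against 29.7% of 232 loci called lower. In HAP1 cells 6 had enough counts, and their log2 values ran from -6.53 to -3.40, against 26.4% of 239 loci called lower and 45.2% called in either direction. The HAP1 background rests on single libraries, with 108 calls in all but 67, 41 and 62 without iCLIP replicate 1, 2 and 3. In HEK293 cells 56.5% were called in either direction. The locus left out for low counts was tRNA-Gln-TTG-3-2 in HEK293 cells and tRNA-Gln-TTG-3-3 in HAP1 cells. At tRNA-Gln-CTG-1-5, FICC-Seq had 0 of 56777 tRNA counts in HEK293 cells, and the iCLIP rate was at least 32.1-fold higher against a limit of 3 counts over the group. tRNA-Gln-CTG-1-2 had 0 FICC-Seq counts in HAP1 cells, and the iCLIP rate was at least 18.9-fold higher. The fitted log2 values of these 2 loci depend on the added 0.5 counts. In HAP1 cells the call at tRNA-Gln-TTG-3-1 rested on the choice of libraries: it was lost without FICC-Seq replicate 1 or 3, without iCLIP replicate 2 or 3, and with all cDNA counts as library size. The call at tRNA-Gln-CTG-1-2 in HAP1 cells was lost without FICC-Seq replicate 1 or 3.

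The difference between the methods did not pass the test of a difference between cell lines at any glutamine locus. The interaction log2 values of method and cell line ranged from -1.40 to 1.19 over the 7 loci, limma called 0% of 246 loci, and 26 loci, none of them a glutamine locus, had an unadjusted p under 0.05. When HEK293 was compared with HAP1 within FICC-Seq, 2 glutamine loci had enough counts and neither was called (14.7% of 225 loci were). Their log2 values were -0.65 (95% interval -3.86 to 2.56) at tRNA-Gln-TTG-1-1 and -1.05 (-4.49 to 2.40) at tRNA-Gln-TTG-3-1. Within iCLIP, 7 were tested and none was called (0.866% of 231 loci were, 0.433% in each direction, and none with the replicate number as a block). The largest iCLIP difference, at tRNA-Gln-CTG-1-2, was a log2 value of 2.10 toward HEK293 with a 95% interval from 0.47 to 3.73 (limma adjusted p = 0.172). These intervals are wide, and differences of that size cannot be read as absent.

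In miCLIP, the listed loci of the 2 anticodons gave different rates relative to iCLIP. The CTG loci held 108 counts in iCLIP and 488 in miCLIP from HEK293 cells, so that the miCLIP rate was 0.909 times the iCLIP rate (exact 95% interval 0.736 to 1.13). The TTG loci held 62 and 1368 counts, and the miCLIP rate was 4.44 times the iCLIP rate (3.44 to 5.82). Unlisted CTG genes went both ways. That at chr6:27515531-27515602 held 1, 4 and 0 HEK293 iCLIP counts against 54 and 185 in miCLIP. That at chr6:28909378-28909449 held 9, 5 and 6 against 1 and 13. The split is thus that of the listed members, and a difference between the anticodons was not tested. Between these methods the scale matters, because the median log2 value over all 245 tested loci was 1.05 toward miCLIP and that of the 7 members was 1.08. Leucine tRNAs took a mean of 47.1% of the tRNA counts in iCLIP, over both cell lines, and 6.67% in miCLIP, and their part in this shift was not tested.

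By locus, 4 members were called higher in miCLIP than in iCLIP, all with the anticodon TTG (50.6% of the 245 loci were called higher), and 1 was called lower (14.7%, with 65.3% called in either direction). tRNA-Gln-TTG-3-1 held 166 and 515 miCLIP counts, a log2 fold change of 3.0 ± 0.521 over iCLIP (limma adjusted p = 4.77e-06), and both miCLIP libraries lay above the 3 iCLIP libraries. tRNA-Gln-TTG-3-2, with 27 and 86 miCLIP counts, had a log2 fold change of 2.27 ± 0.672 (limma adjusted p = 0.00343). tRNA-Gln-TTG-3-3, with 32 and 176, had one of 2.07 ± 0.645 (limma adjusted p = 0.00511). In iCLIP from HEK293 cells, tRNA-Gln-TTG-3-2 held 5 counts and tRNA-Gln-TTG-3-3 held 8, so both passed the minimum count only through miCLIP. The filter thus set their direction, and their calls are not read as a result. tRNA-Gln-TTG-1-1 held 64 and 302 counts and had a log2 fold change of 1.08 ± 0.424 (limma adjusted p = 0.0235), close to the median of all loci, 1.05.

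Of the CTG loci, 1 passed the test. tRNA-Gln-CTG-1-5, with 12 and 46 miCLIP counts, was lower in miCLIP by a log2 fold change of -1.33 ± 0.486 (limma adjusted p = 0.016). tRNA-Gln-CTG-1-2, with 14 and 91 counts, had a value of -0.83 (95% interval -1.74 to 0.08) and tRNA-Gln-CTG-1-4, with 81 and 244, one of 0.45 (-0.29 to 1.18), and neither was called. After median ratio scaling, which centres the loci, only tRNA-Gln-TTG-3-1 was still called higher, 2 members were called lower, and the calls over all loci changed from 124 higher and 36 lower to 62 and 62.

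FICC-Seq was lower than miCLIP at all 7 loci in HEK293 cells, where 51.8% of 247 loci were called lower and 76.9% in either direction. No member held more than 7 FICC-Seq counts in these cells. All thus passed the minimum count through miCLIP, and nothing is read from the number of calls. The log2 fold changes ranged from -6.83 at tRNA-Gln-TTG-3-1 to -4.41 at tRNA-Gln-CTG-1-2, with a median of -5.68 beside -1.11 over all loci. The miCLIP rate over the members was 80.1 times the FICC-Seq rate (exact 95% interval 49.2 to 140). tRNA-Gln-CTG-1-5 and tRNA-Gln-TTG-3-2 had 0 FICC-Seq counts in HEK293 cells, so their fitted values depend on the added 0.5 counts. Site by site, 13 of the 14 glutamine sites were called lower in FICC-Seq, where 37.6% of 407 sites were, but they passed the minimum count through miCLIP, so nothing is read from this count. The comparisons of miCLIP share their libraries with the others, so these values are not a further independent observation.

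The methods also differed in where on the tRNA the counts lay. The position is that of the deposited files, the base before the start of the cDNA. In iCLIP, 230 of 295 glutamine counts (78.0%, exact 95% interval 72.8 to 82.6) lay at A58 and 2 (0.678%, 0.0822 to 2.43) at positions 53 and 54. The share at A58 ranged from 72.7% to 88.4% between the 6 libraries, and was 80.0% ± 7.35 (SD, n = 3) in HEK293 cells and 77.2% ± 4.27 (SD, n = 3) in HAP1 cells. The bases on either side of A58, 55 to 57 and 59 to 60, held another 25 and 21 counts.

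In miCLIP, 676 of 1856 counts (36.4%, 34.2 to 38.7) lay at positions 53 and 54, with 431 at G53 and 245 at T54, and 768 (41.4%, 39.1 to 43.7) at A58. The share at 53 and 54 was 34.6% and 36.9% in the 2 libraries, and the share at A58 43.4% and 40.8%. In replicates 1 and 2, G53 held 61 and 370 counts and T54 held 76 and 169. T54 thus exceeded G53 in replicate 1, and the excess at G53 came from replicate 2. G53 is the base before T54, and in catalytic crosslinking the base after the named one is taken as the modified base. Another 78 counts (4.20%) lay at positions 33 to 35, the last base before the anticodon and its first bases, and 166 (8.94%) from 6 to 4 bases before the first base of the gene, in the leader. No count of any method fell on positions 66 to 73 or in the trailer, and none from the first base of the gene through the D arm. Reads were short and had to map to a single place, which limited in advance where counts could lie. The part of this in the empty stretches, and in the shares at positions 33 to 35 and in the leader, was not tested. Nothing is read from the empty stretches.

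The FICC-Seq counts on glutamine loci were too few for a firm profile. Of 55 counts, 11 (20%, 10.4 to 33%) lay at positions 53 and 54, 10 (18.2%, 9.08 to 30.9) at A58, 19 (34.5%, 22.2 to 48.6) at positions 33 to 35, and 10 in the leader. The counts at positions 33 to 35 and in the leader all came from the replicate 2 libraries, and the most at 1 position in 1 library was 9, at T33 of tRNA-Gln-TTG-3-1 in HAP1 replicate 2. No glutamine site at positions 53 and 54 had enough counts in FICC-Seq and iCLIP together to be tested. Of the 201 such sites of other tRNAs that were, 60.2% were called higher in FICC-Seq and 6.47% lower.

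By site, the 7 loci together held 10 FICC-Seq and 230 iCLIP counts at A58. FICC-Seq had 0 counts there at tRNA-Gln-CTG-1-2, tRNA-Gln-CTG-1-5 and tRNA-Gln-TTG-3-2, 1 at each other locus but tRNA-Gln-TTG-3-1, and 7 at tRNA-Gln-TTG-3-1. The fit called all 7 of these sites lower in FICC-Seq (43.8% of the 192 A58 sites were), but the members were listed by counts at this site and passed the minimum count through iCLIP, so the direction was fixed by the choice and nothing is read from it.

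At positions 53 and 54, 6 loci had 0 iCLIP counts in HEK293 cells. miCLIP counts there were 191 at tRNA-Gln-TTG-3-1, 182 at tRNA-Gln-TTG-1-1, 110 at tRNA-Gln-CTG-1-4, 81 at tRNA-Gln-TTG-3-3, 47 at tRNA-Gln-TTG-3-2 and 43 at tRNA-Gln-CTG-1-2. Against a limit of 3 counts over the group, the miCLIP rate was from at least 2.88-fold higher at tRNA-Gln-CTG-1-2 to at least 12.8-fold higher at tRNA-Gln-TTG-3-1. These 6 sites were called higher in miCLIP (61.5% of the 231 such sites were higher, 5.19% lower, and 38.6% of 396 sites of both positions higher). They passed the minimum count through miCLIP alone, so only that direction was possible. At tRNA-Gln-CTG-1-5, miCLIP held 0 and 22 counts and iCLIP 2, both in 1 library, and the site was not called. Its mean share was higher in miCLIP (0.0182% against 0.0085%) while its fitted log2 value was negative (-0.71, 95% interval -2.42 to 1.00), so no direction is read. Over all sites, the 252 calls became 72 and 95 without miCLIP replicate 1 and 2, where the lone miCLIP library was assumed to vary like iCLIP.

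The A58 sites of glutamine were called in both directions in miCLIP. Over all tRNAs, 52.7% of the 165 A58 sites tested were called lower in miCLIP than in iCLIP and the median log2 value was -1.81. Of the glutamine sites, 2 were called lower, at tRNA-Gln-CTG-1-2 and tRNA-Gln-CTG-1-5, 1 was called higher (6.67% of the sites were), at tRNA-Gln-TTG-3-1 (log2 value 2.18 ± 0.676, limma adjusted p = 0.00302), and 4 were not called, with a median of -0.06 over the 7. The share of a locus's miCLIP counts at A58 ranged from 18% at tRNA-Gln-TTG-1-1 to 56.9% at tRNA-Gln-CTG-1-4. Over the 224 other loci with at least 20 miCLIP counts the median was 3.38%, and at most 3 of them lay above any glutamine locus but tRNA-Gln-TTG-1-1, above which there were 21. Since the members were listed by counts at A58, a high share there follows in part from the listing. The unlisted glutamine genes had 8.83% of their 566 miCLIP counts at A58, and all 20 genes together 33.8% of 2422. The miCLIP share of the 7 members at 53 and 54, from 28% to 49.7%, lay below the median of the other loci, 50.7%.

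Set beside the other isotype families, glutamine had the second lowest ratio of FICC-Seq to iCLIP of 21, with a ratio of mean shares of 0.0453 (0.0354 in HEK293 and 0.0585 in HAP1 cells). The initiator methionine tRNA, whose T-loop begins with A in place of T, was the family below it (ratio 0.00147, 10 FICC-Seq and 1224 iCLIP counts). The next above were proline (0.172, 86 and 120 counts) and threonine (0.247, 817 and 774 counts). The glutamate tRNAs lay near the other end at 2.01 (10028 and 1124 counts). The order comes from sums over a family and carries no test.

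The initiator methionine tRNA had 71.4% of its miCLIP counts at A58, above the 41.4% of glutamine. It took 0.297% of the tRNA counts there, against 3.86% in iCLIP, whereas glutamine took 2.12% in miCLIP and 0.915% in iCLIP. Proline took 1.44% and 0.374%, and threonine 8.40% and 2.43%. In FICC-Seq, 27.9% of the proline and 44.6% of the threonine counts lay at positions 53 and 54, against 20% of the glutamine counts.

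The T-loop TTCAAAT was not particular to glutamine. It stood at 33 of the numbered loci, among them 8 of proline, 11 of cysteine, 3 of threonine and 1 of tryptophan. The 26 loci outside glutamine had a FICC-Seq to iCLIP ratio of 0.462, and 19 of them were called lower in FICC-Seq and 0 higher, with a median log2 value of -2.41. Of 199 tested loci with another T-loop, 57 were called lower and 61 higher, with a median of 0.18. Among the other T-loops, the 5 loci with TTCGAAA had a ratio of 0.062, on 24 FICC-Seq and 86 iCLIP counts. At A58 they had 84.9% of their iCLIP and 38.2% of their miCLIP counts. A low ratio and a high share at A58 were thus not confined to TTCAAAT. Within the TTCAAAT loci the ratio still spread widely, from 0.0453 for glutamine to 0.960 for the single leucine locus.

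Over the 14 libraries, the 5 loci whose log2 counts relative to the library's tRNA total followed the summed glutamine loci most closely were tRNA-Cys-GCA-14-1 (Pearson's r = 0.970), tRNA-Thr-CGT-2-1 (0.962), tRNA-Met-CAT-3-2 (0.957), tRNA-Thr-TGT-6-1 (0.956) and tRNA-Ala-CGC-4-1 (0.955), out of 239 compared. The correlations are a description, since all loci of a library share its method and depth. Of the 5, tRNA-Cys-GCA-14-1 and tRNA-Thr-TGT-6-1 had the T-loop of the glutamine loci.

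The search by sequence started from the sequences of the listed members but did not require a listed cluster. In the hg19 genome, 20 genes of the full length matched a member at 90% identity or more and had the anticodon CTG or TTG, among them the 7 members. All 20 held 79 FICC-Seq, 375 iCLIP and 2422 miCLIP counts, and the pooled iCLIP rate was 20.3 times the FICC-Seq rate (exact 95% interval 15.9 to 26.2). The members held 55 of these FICC-Seq and 295 of these iCLIP counts, so this ratio is not free of the listing. Of the 13 genes outside the table, all but 2 also differ from every member in sequence. The 13 genes held 24 FICC-Seq, 80 iCLIP and 566 miCLIP counts, and their ratio was 14.3 (8.94 to 23.5). Of the 24 FICC-Seq counts, 17 came from HAP1 replicate 2. The ratio rested largely on the genes at chr6:28909378-28909449 (31 iCLIP counts) and chr6:27263212-27263283 (25), both with 0 FICC-Seq counts. It is therefore not read as a trait of each unlisted gene. Of these 13 genes, 10 held any count.

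Among them, the gene at chr6:27515531-27515602 on the minus strand, with the anticodon CTG and the T-loop TTCAAGT, was the most counted, with 10 FICC-Seq, 10 iCLIP and 239 miCLIP counts. The TTG gene at chr6:28557156-28557227 held 6, 3 and 137, and the CTG gene at chr6:27759135-27759206 held 3, 7 and 91. The 2 genes identical to tRNA-Gln-CTG-1-2, at chr6:28909378-28909449 and chr6:18836402-18836473, held 0 and 1 FICC-Seq counts, 31 and 1 iCLIP counts, and 14 and 18 miCLIP counts. A CTG gene at chr6:27263212-27263283 held 25 of its 31 counts in iCLIP. The remaining genes with counts, all but 1 on chromosome 1, held from 5 to 43 counts each, most of them in miCLIP. At positions 53 and 54, the 13 genes had 7 of 24 FICC-Seq, 0 of 80 iCLIP and 235 of 566 miCLIP counts, and at A58 they had 1, 61 and 50.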

How the data were processed

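TRMT2A FICC-Seq, iCLIP and miCLIP were measured in 14 libraries. The authors deposited, per genomic position, a whole number of cDNA counts with a sign for the strand. They had removed duplicates by random barcode and mapped reads to hg19 with bowtie through iCount, keeping reads with a unique position. Absolute counts were summed over windows from the study's site table, clusters less than 40 nt apart being joined. Position 54 was set from the T-loop in the genome at 234 of 248 loci. Glutamine genes were searched with blastn 2.17.0 at 90% identity or more.

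Loci with at least 10 counts in a comparison were fitted with limma-voom (limma 3.58.1, R 4.3.3) on the tRNA total of each library, with cell line as covariate where both entered. The design had named another count model. limma-voom took its place because the deposited column is signed and was not treated as a plain count table, although the summed absolute counts are whole numbers that a count model would accept. The fit was tested on simulated data. Exact 95% intervals came from scipy 1.17.1, and a count of 0 was given a limit of 3 counts. Members and lists were chosen with earlier results of these data known. All listed glutamine loci were named, with glutamate, the neighbours in the family order, the 5 most similar loci and unlisted glutamine genes. The miCLIP site tests, T-loop groups, median ratio scaling, limma-trend, the permutation test, the interaction, the random block and the omission of FICC-Seq replicate 2 were chosen after seeing the data.

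Same-numbered libraries deviated together between the cell lines (r of deviations from group means 0.341 to 0.644 in FICC-Seq and 0.120 to 0.337 in iCLIP). In FICC-Seq, HAP1 replicate 1 with HEK293 replicate 3 also gave 0.380. Replicate 2 of either line with another number of the other line gave from -0.542 to -0.352. The FICC-Seq values thus mainly set replicate 2 apart. The fits reported are without pairing by number, and fits with it are given as alternatives. The labels do not say that replicates are separate cultures, so p-values measure the spread between libraries. Library pairs of a group all differed beyond counting noise (chi-square per degree of freedom 1.44 or more).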

Additional observations from a re-analysis of the deposited data

How the results depend on the processing

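The glutamine loci were lower in FICC-Seq than in iCLIP and miCLIP in every alternative run. In the filtered fits most of them passed the minimum count only with their iCLIP or miCLIP counts, so that direction was largely set by the filter. Leaving out 1 library at a time left 7 called lower with both cell lines, 5 to 6 in HEK293, 4 to 6 in HAP1 and 7 against miCLIP. Over all loci, it gave 142 to 156 calls with both lines, 101 to 130 in HEK293, 41 to 122 in HAP1 (108 with all libraries, but 67, 41 and 62 without iCLIP replicate 1, 2 and 3), 173 to 197 for FICC-Seq against miCLIP, 123 to 157 for miCLIP against iCLIP, 21 to 37 between the lines in FICC-Seq (21 without HEK293 replicate 1 or 3) and 1 to 7 in iCLIP (7 without HAP1 replicate 2 or HEK293 replicate 1 or 2, and 1 without HAP1 replicate 1). Over sites it gave 210 to 235, 275 to 325 and, for miCLIP against iCLIP, 72 to 244 calls (252 with all libraries, but 72 and 95 without miCLIP replicate 1 and 2, where the lone miCLIP library is assumed to vary like iCLIP). Glutamine loci called higher in miCLIP than in iCLIP were 2 to 4 (2 without iCLIP or miCLIP replicate 2), and glutamine sites 4 to 7. The share at positions 53 and 54 ran from 0 to 18.2% in HAP1 FICC-Seq and from 34.6% to 36.9% in miCLIP.

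Between the cell lines in iCLIP, the 2 calls became 1 with limma-trend, 1 with median ratio scaling, 9 without positions of 1 count and 0 with the replicate block. In FICC-Seq the block, which pairs the cell lines by number, gave 49 calls in place of 33. Between FICC-Seq and iCLIP the numbers were not taken as pairs (correlations of deviations 0.00953 to 0.257), and the block gave 152 loci in place of 150, with all 7 glutamine loci called. A random block of the number within a method, over both cell lines (estimated correlation 0.174), gave 147 loci, 7 glutamine loci and 230 sites. The 4 glutamine loci called higher in miCLIP became 2 with limma-trend and 1 with median ratio scaling. The 7 glutamine sites called lower became 14 with no filter on low counts. The 7 added sites, at positions 53 and 54, hold 1 or 2 counts each, at 6 of them in FICC-Seq alone, so these 6 calls run against the counts, and none of the 7 is read. With all cDNA counts as library size, higher calls made up 60.7% of the calls of FICC-Seq against iCLIP, in place of 42.7%, 68.6% in place of 47.3% in HEK293, and 61% in place of 41.7% in HAP1. With median ratio scaling they were 34.2% in HEK293.

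Of the shares of tRNA counts, those of HEK293 iCLIP, HAP1 iCLIP and miCLIP became 0.565%, 0.439% and 1.21% of all cDNA counts, and 1.34%, 0.970% and 2.75% with all glutamine genes found by sequence. The share at positions 53 and 54 became 0 in HEK293 FICC-Seq without positions of 1 count, 37.6% in HAP1 FICC-Seq as a mean over loci and 0 at position 53 alone. In miCLIP it became 40.4% within the mature gene, 38.7% as a mean over loci and 23.2% at position 53 alone. Signs turned only for values that were not called. Between the lines in iCLIP, tRNA-Gln-CTG-1-4 ran from -0.0801 (without HAP1 replicate 3) to 0.496, and tRNA-Gln-TTG-3-1 from -0.801 to 0.325 (without HEK293 replicate 1). For miCLIP against iCLIP, median ratio scaling gave -0.384 at tRNA-Gln-CTG-1-4 and -0.366 at A58 of tRNA-Gln-TTG-3-3. A58 of tRNA-Gln-CTG-1-4 became 0.0451 with all cDNA counts and ran from -0.323 to 0.209 with 1 library left out, above 0 without iCLIP or miCLIP replicate 1. Positions 53 and 54 of tRNA-Gln-CTG-1-5 ran from -0.950 to 1.24, above 0 without the same libraries. The causes were not tested. Fits with DESeq2 and with edgeR were not run. FICC-Seq counts on glutamine loci were too few for a firm profile along the tRNA.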
